A study of Homo sapiens with 18 samples.

Results

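The 33 genes described here encode proteins of the extracellular matrix and the enzymes that modify and crosslink collagen, and they were taken from the RNA table by gene symbol. All 33 were among the 14177 genes of that table. The genes were chosen with earlier results of these data known, so shares given beside all tested genes are descriptive. They comprise 12 basement membrane genes, 4 fibrillar collagen genes, 3 collagen VI genes, 7 crosslinking and processing genes, and 7 genes of other matrix proteins, protease inhibitors and a receptor. RNA was sequenced from HEK293T cells, a widely used line of human embryonic kidney origin. The UBR7KO cells carry a CRISPR-Cas9 knockout of UBR7, which the study's title calls a histone H3 chaperone, and came as 2 libraries of line KO1 (KO1-1 and KO1-2) and 1 library labelled KO2. The parental HEK293T cells came as 3 libraries. No treatment was given to either group according to the labels, and whether a line is 1 clone is not stated. Open chromatin was read by ATAC-seq in 2 UBR7KO and 2 parental libraries, and GFP ChIP-seq was made from 1 library of HEK293T cells in which endogenous UBR7 was tagged with GFP.

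The matrix surrounds cells as fibrils and sheets. In the basement membrane, a network of collagen IV and a network of laminin trimers are joined by nidogens and by the heparan sulfate proteoglycans perlecan and agrin. Collagen chains are hydroxylated and folded into triple helices in the endoplasmic reticulum, secreted, and then crosslinked outside the cell by lysyl oxidases. Epithelial cells of the kidney secrete basement membrane, whereas fibrillar collagens are made mostly by fibroblasts and related cells.

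The RNA libraries held between 22153291 and 29811908 reads, and the 33 genes took 0.277% and 0.305% of the reads in KO1, 0.187% in the library labelled KO2, and 0.204%, 0.240% and 0.226% in parental 1, 2 and 3. CPM, the reads of a gene scaled to a common library total, give its level without correction for gene length, so levels are compared between libraries and not between genes. Date codes in the labels pair KO1-1 with parental 1 and KO1-2 with parental 2, while the library labelled KO2 and parental 3 carry no date and were taken as the remaining pair. UBR7 itself stood at 27.0 and 26.3 CPM in KO1 and at 64.5 CPM in the library labelled KO2, against 55.0, 62.16 and 62.25 CPM in the parental libraries. Its level in that library therefore goes against the label. A deletion that leaves a stable transcript cannot be told apart here from an unedited gene. The undated libraries also stood apart from the dated ones whatever their genotype. Both undated libraries lay below all 4 dated ones for 9 of the 33 genes and above them for 1, where 30.2% and 13% of the 13697 tested genes did so. All 6 genes listed as markers of HEK293 cells and kidney lineage were in the table. They summed to 203.5, 381.4 and 125.0 CPM in KO1-1, KO1-2 and the library labelled KO2, against 162.9, 367.2 and 186.9 CPM in parental 1, 2 and 3. Most of each sum came from the neurofilament genes NEFM (27.7 to 211 CPM) and NEFL (42.6 to 117 CPM), so the sums do not measure kidney identity. PAX2 stood at only 0.721 to 1.92 CPM, below 1 CPM in both undated libraries, and LHX1 at 1.07 to 3.81 CPM. Of the fibroblast markers 3 of 8 were in the table, and these 3 (COL1A1, COL3A1 and LUM) are themselves matrix genes of this set. None of the 5 endothelial and 5 blood markers was in the table, and 4 of 6 epithelial markers were, with summed levels of 43.28 to 54.54 CPM in UBR7KO and 48.18 to 75.15 CPM in parental cells. In cultures of this kind fewer cells of a type and less RNA per cell cannot be told apart.

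**Figure D1:**
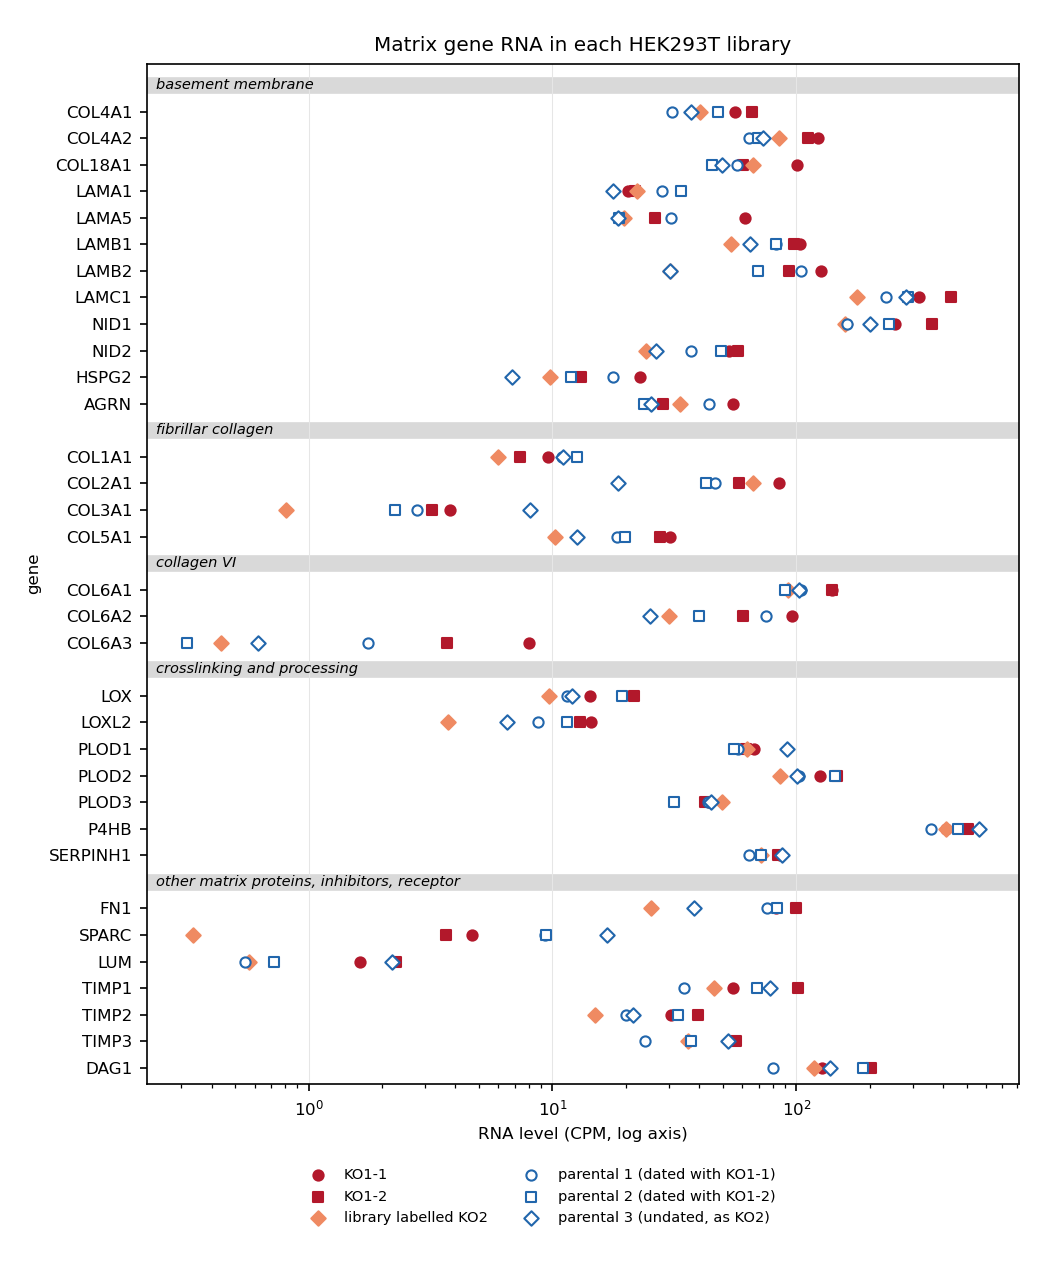
RNA level in CPM on a log axis for each of the 33 genes in each of the 6 libraries, with UBR7KO libraries filled and parental libraries open. Symbols of 1 shape form a pair. The library labelled KO2 lies below both KO1 libraries for 27 genes, and parental 3 lies below both dated parental libraries for 12 genes and above both for 10. Symbols that coincide hide one another, as for LAMB2 in the undated pair.

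The first comparison set all 3 UBR7KO libraries against all 3 parental libraries, to ask which matrix transcripts moved with the knockout in both lines. None of the 33 genes passed the test, and neither did any other gene: limma, a linear model fitted to log2(CPM + 1) with Benjamini-Hochberg adjustment over 13697 genes, called 0% of genes higher and 0% lower at an adjusted p under 0.05. An unadjusted p under 0.05 was reached by 23 genes on the higher side and 47 on the lower side, of which 3 and 1 are matrix genes (COL4A2, COL18A1 and COL2A1 higher, SPARC lower, adjusted p = 1 each). edgeR's quasi-likelihood test called 0 genes and DESeq2 called 1 higher and 6 lower, none of them a matrix gene. With the pairs as a block, DESeq2 alone among the fits called a matrix gene, COL2A1. The median change over the 33 genes was 0.19 on the log2 scale with 26 positive, against 0.01 (0.0145) over all tested genes. For 5 of the 33 genes every UBR7KO value lay on one side of every parental value, where 2.48% of all tested genes were so separated.

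Those 5 genes are COL4A2, COL18A1 and COL2A1 on the higher side and COL1A1 and SPARC on the lower side. COL1A1, a chain of the main fibrillar collagen, stood at 9.59, 7.38 and 5.97 CPM in KO1-1, KO1-2 and the library labelled KO2, against 10.9, 12.6 and 11.0 CPM in parental 1, 2 and 3. All its UBR7KO values lie under all its parental values, with a log2 change of −0.55 (SE 0.27, limma adjusted p = 1). In the 5 Mb on either side of its start the median change of the tested genes in the undated pair was −0.28, so a regional shift lay beside the −0.79 of COL1A1 there. Its part in the result was not tested. In the authors' deposited table no matrix gene had an adjusted p under 0.05, and SPARC, with a log2 change of −2.15 and an adjusted p of 0.814, was the one below 1.

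The second comparison set line KO1 against the parental libraries of the same dates, which leaves out the undated libraries. Every UBR7KO library in it is of line KO1, so knockout and line cannot be told apart. The 33 genes were mostly higher in KO1: 30 had a positive change, and their median was 0.38 on the log2 scale against 0.03 (0.0312) for all tested genes. Both KO1 values lay above both dated parental values for 16 genes and below them for 3 (LAMA1, COL1A1 and SPARC), which is 48.5% and 9.09% of the 33 genes, beside 14.5% and 9.01% of all tested genes. Without the date pair in the model limma called 0% of genes higher and 0% lower. An unadjusted p under 0.05 was reached by 116 genes on the higher side, 6 of them matrix genes, and by 102 on the lower side, 1 of them a matrix gene. edgeR's quasi-likelihood test then called 0 genes, and DESeq2 4 higher and 20 lower with no matrix gene among them. Deviations from the group mean were shared within the dated pairs, so the date pair was also fitted as a block, which leaves 1 residual degree of freedom. That fit called 14 of the 33 genes higher and 2 lower (42.4% and 6.06%), beside 2.23% and 1.36% of all tested genes. DESeq2 with the same block called 4 of these 16: COL4A2, NID1 and COL6A3 higher and SPARC lower. Over all tested genes it called 72 higher and 99 lower. Since the 33 genes were chosen with earlier results of these data known, their larger shares are no independent result. The p-values of the blocked fits rest on the spread among libraries of a single knockout line, and that spread can be technical. With 1 residual degree of freedom, limma takes the variance of a gene largely from other genes of similar level. Its SE is therefore not that gene's own spread between the pairs. LAMA5, with pair changes of 0.98 and 0.46, had an SE of 0.15, and TIMP3, with 0.59 and 0.60, had one of 0.13. Statements below that a gene rose or fell in KO1 refer to this blocked limma fit, and in the unblocked fit each has an adjusted p of 1.

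**Figure D2:**
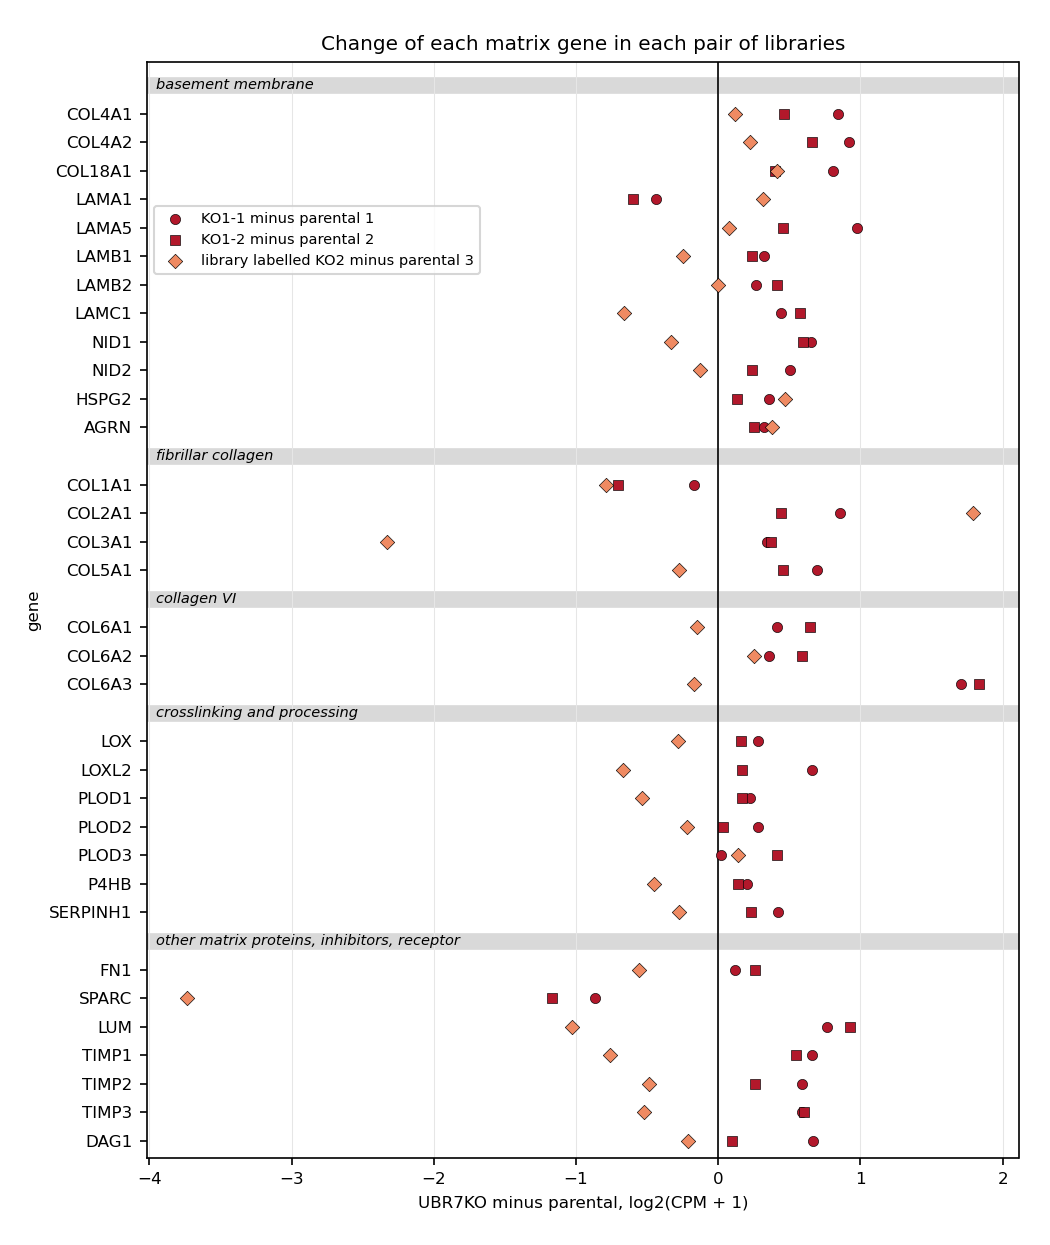
Change of each of the 33 genes in each pair, as UBR7KO minus parental on the log2(CPM + 1) scale. In both KO1 pairs 30 genes lie right of 0, with medians of 0.42 and 0.37, while in the pair of the library labelled KO2 10 do, with a median of −0.25.

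Among the basement membrane genes 6 rose and 1 fell in KO1, with a median change of 0.44 over all 12. COL4A1 and COL4A2 encode the chains of the collagen IV heterotrimer and are transcribed in opposite directions from a shared promoter region. COL4A2 stood at 122 and 111 CPM in KO1 and 85.2 CPM in the library labelled KO2, against 64.3, 69.9 and 72.8 (72.85) CPM in parental 1, 2 and 3. All UBR7KO values lie above all parental values, with the library labelled KO2 closest to them. It rose by 0.79 in KO1 (log2, SE 0.12, limma adjusted p = 0.000389). COL4A1 stood at 56.0 and 66.0 CPM in KO1 and 40.3 CPM in the library labelled KO2, against 30.8 (30.85), 47.6 and 37.0 CPM. KO1 was higher than the dated parental libraries (0.65, SE 0.13, adjusted p = 0.00585), while the library labelled KO2 lay within the parental range. Their annotated spans on opposite strands overlap by 1338 bases in the files' coordinates, and whether the counting used strand is not given in the sources used here, so reads in that stretch are uncertain. In the undated pair the genes within 5 Mb of them had a median change of 0.50 (0.4955), above the 0.12 of COL4A1 and the 0.22 of COL4A2.

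The stretch between the RefSeq starts of COL4A1 and COL4A2 is shown because both genes rose in KO1 and share this promoter region. It spans chr13:110307158-110307283 in GRCh38.p14, plus strand, 126 bases, and capitals mark a CCAAT box (CCAAT) and a GC box (GGGCGG), motifs known to be bound by NF-Y and by Sp1 family factors.
COL4A1 to COL4A2, between the starts: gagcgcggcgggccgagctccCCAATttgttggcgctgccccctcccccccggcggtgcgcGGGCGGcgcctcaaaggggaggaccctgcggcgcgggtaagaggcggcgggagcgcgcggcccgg
An ATAC peak lay within 1000 bases of the COL4A1 start in 1 of 2 UBR7KO libraries and in 1 of 2 parental libraries.

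The laminins did not move as one. LAMC1, the gamma chain of most laminin trimers, stood at 317 and 430 (429.8) CPM in KO1 and 178 CPM in the library labelled KO2, against 234, 288 and 282 CPM in parental 1, 2 and 3. KO1 lay above and the library labelled KO2 below every parental library. LAMC1 rose by 0.51 in KO1 (SE 0.12, adjusted p = 0.02), a call lost with TMM scaling (adjusted p = 0.0516) and with edgeR's quasi-likelihood test (0.0531). Its neighbours within 5 Mb on chromosome 1 had a median change of 0.34 in the KO1 pairs, the highest of all 33 surroundings. LAMA5, the alpha chain of laminins of mature kidney basement membranes, stood at 61.6 and 26.2 CPM in KO1 and 19.7 CPM in the library labelled KO2, against 30.8 (30.75), 18.8 and 18.6 CPM. It rose within both dated pairs (0.72, SE 0.15, adjusted p = 0.00688), although KO1-2 lies below parental 1. LAMA1, the alpha chain of the embryonic laminin, was the exception in direction. It stood at 20.5 and 21.9 CPM in KO1 and 22.3 CPM in the library labelled KO2, against 28.05, 33.7 and 17.8 CPM, and fell by 0.52 in KO1 (SE 0.14, adjusted p = 0.043). The 3 UBR7KO values lie close together, while the parental values spread on both sides of them. LAMB1 and LAMB2, beta chains, had positive changes of 0.28 and 0.34 in KO1 that did not pass the test (adjusted p = 0.225 and 0.122).

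The linker nidogen-1 followed collagen IV in KO1. NID1 stood at 254 and 362 CPM in KO1 and 159 CPM in the library labelled KO2, against 161, 239 and 200.4 CPM in parental 1, 2 and 3. It rose by 0.62 in KO1 (SE 0.12, adjusted p = 0.004), above the 0.15 of its neighbours on chromosome 1. In the library labelled KO2 it was below all parental libraries. COL18A1, whose protein is a basement membrane collagen that releases endostatin, stood at 100.4 and 60.2 CPM in KO1 and 66.6 CPM in the library labelled KO2, against 56.9, 45.3 and 49.7 CPM. All UBR7KO values exceeded all parental values, and it rose by 0.61 in KO1 (SE 0.13, adjusted p = 0.00847). NID2, the proteoglycan HSPG2 (perlecan) and AGRN (agrin, which also clusters acetylcholine receptors) had KO1 changes of 0.37, 0.24 and 0.29 with adjusted p from 0.115 to 0.482. The spans of COL18A1, LAMA5 and LAMB1 overlap another gene of the table on the opposite strand (SLC19A1, ADRM1 and DLD), which leaves their counts uncertain in the same way.

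Of the 4 fibrillar collagen genes 2 rose in KO1. COL2A1, the chain of the main cartilage collagen, stood at 84.8 and 58.3 CPM in KO1 and 66.6 CPM in the library labelled KO2, against 46.3, 42.6 and 18.6 CPM in parental 1, 2 and 3. All UBR7KO values lie above all parental values, and parental 3 lies far under the other parental libraries. COL2A1 rose by 0.65 in KO1 (SE 0.13, adjusted p = 0.00567) and was the gene with the highest change in the undated pair (1.79). COL5A1, a chain of the collagen that helps to start fibrils, stood at 30.4 and 27.5 CPM in KO1 and 10.3 CPM in the library labelled KO2, against 18.4, 19.8 and 12.6 CPM, and rose by 0.58 in KO1 (SE 0.15, adjusted p = 0.0252). COL1A1 had a KO1 change of −0.44 (adjusted p = 0.231) and COL3A1, a fibrillar collagen of soft tissues, one of 0.36 (adjusted p = 0.404).

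The 3 collagen VI genes, whose products form a beaded filament network beside basement membranes, all rose in KO1. COL6A3 changed the most of the 33 genes there, at 7.99 and 3.69 CPM in KO1 and 0.436 CPM in the library labelled KO2, against 1.75, 0.316 and 0.618 CPM in parental 1, 2 and 3. The 3 lowest of these values rest on few reads, 7 in the lowest library, and KO1 lies above every other library. It rose by 1.77 on the log2(CPM + 1) scale (SE 0.21, adjusted p = 1.35e-05), while the CPM ratios within the pairs were 4.57 (KO1-1) and 11.7 (KO1-2), since the pseudocount shrinks changes at low levels. COL6A1 stood at 140 (139.6) and 140.5 CPM in KO1 and 92.1 CPM in the library labelled KO2, against 104.5, 89.5 and 102.5 CPM, and rose by 0.53 (SE 0.12, adjusted p = 0.014). COL6A2, its neighbour 116360 bases further along chromosome 21, stood at 96.4, 60.5 and 30.1 CPM against 75.0, 39.9 and 25.1 (25.15) CPM, and rose by 0.47 (SE 0.12, adjusted p = 0.0299). Within each pair COL6A2 was higher in UBR7KO, and the pairs themselves differ more than the genotypes. The COL6A2 call was lost with TMM scaling (adjusted p = 0.0507).

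**Figure D3:**
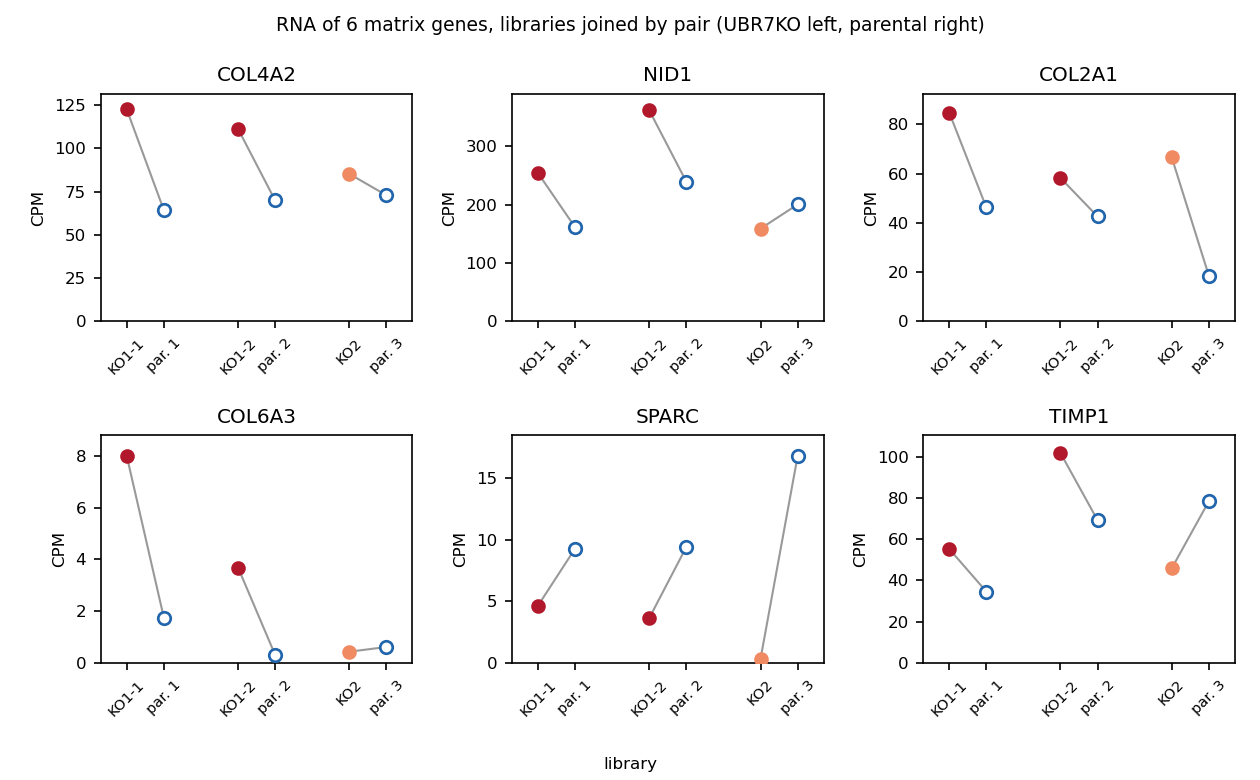
CPM of 6 matrix genes in the 3 pairs, UBR7KO left and parental right, joined by a line within a pair. COL4A2 and COL2A1 are higher in UBR7KO in each pair and SPARC is lower in each, whereas NID1, COL6A3 and TIMP1 are higher in both KO1 pairs and lower in the pair of the library labelled KO2.

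None of the 7 crosslinking and processing genes was called in KO1, although all 7 had a positive change, with a median of 0.21. P4HB, the beta subunit of prolyl 4-hydroxylase and a protein disulfide isomerase, stood at 411 (411.5) and 506 CPM in KO1 and 411 (410.7) CPM in the library labelled KO2, against 358, 460.1 and 561 CPM in parental 1, 2 and 3. The groups overlap, and its KO1 change was 0.17 (SE 0.12, adjusted p = 0.541). SERPINH1 (HSP47), the chaperone of procollagen, stood at 85.8 and 84.3 CPM in KO1 and 71.9 CPM in the library labelled KO2, against 63.8, 71.7 and 87.2 CPM, with a change of 0.33 (SE 0.12, adjusted p = 0.149). The lysyl hydroxylases PLOD1, PLOD2 and PLOD3, the lysyl oxidase LOX and its relative LOXL2 had KO1 changes of 0.16 to 0.42, with adjusted p from 0.232 to 0.56. The span of LOXL2 overlaps ENTPD4 on the same strand by 39546 bases. Those of LOX and PLOD3 overlap SRFBP1 and ZNHIT1 on the opposite strand, so these counts are uncertain too.

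The 150 bases before the first RefSeq start of SERPINH1 are given because ATAC peaks lay at this start and because heat shock elements are known regulators of this gene. They span chr11:75562103-75562252 in GRCh38.p14, plus strand, and capitals mark the heat shock element core GAANNTTC.
SERPINH1, 150 bases before the start: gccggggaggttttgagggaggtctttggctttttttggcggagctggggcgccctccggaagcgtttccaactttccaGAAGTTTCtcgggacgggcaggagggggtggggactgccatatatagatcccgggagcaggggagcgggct
The ATAC peak was called in 1 of 2 UBR7KO libraries and in 1 of 2 parental libraries. The core was found in the windows of 2 genes, 8.33% of the 24 genes with a window (5.78% of all 35116 windows).

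Among the other matrix genes, SPARC fell furthest. SPARC encodes a collagen-binding glycoprotein of the matrix. It stood at 4.66 and 3.65 CPM in KO1 and 0.335 CPM in the library labelled KO2, against 9.30, 9.43 and 16.8 CPM in parental 1, 2 and 3. All UBR7KO values lie under all parental values, with the lowest in the library labelled KO2 (10 reads) and the highest in parental 3. It fell by 1.02 in KO1 (log2, SE 0.20, adjusted p = 0.00435), and the CPM ratios within the pairs were 0.501, 0.387 and 0.01995, the last for the library labelled KO2. SPARC and COL1A1 were the genes lower in each of the 3 pairs, and 9 genes were higher in each: COL4A1, COL4A2, COL18A1, LAMA5, HSPG2, AGRN, COL2A1, COL6A2 and PLOD3. Over all tested genes 2126 were higher and 1570 lower in each of the 3 pairs.

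The 150 bases before the RefSeq start of SPARC are shown as the promoter of the gene with the largest fall. They span chr5:151686916-151687065 in GRCh38.p14, minus strand, and hold none of the 7 motifs searched, so no base is in capitals.
SPARC, 150 bases before the start: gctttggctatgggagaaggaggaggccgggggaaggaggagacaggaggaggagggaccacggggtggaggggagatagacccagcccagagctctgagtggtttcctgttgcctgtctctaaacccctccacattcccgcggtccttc
In ATAC-seq a peak lay within 1000 bases of this start in 0 of 2 UBR7KO libraries and in 1 of 2 parental libraries. That peak was weak, with a −log10 q of 1.08, where q is the adjusted p-value of the authors' peak call.

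Of the 3 genes for tissue inhibitors of metalloproteinases, which block matrix-degrading enzymes, TIMP1 and TIMP3 rose in KO1, although the KO1 values of all 3 overlap the dated parental values. TIMP1 stood at 55.2 and 102 CPM in KO1 and 45.8 (45.85) CPM in the library labelled KO2, against 34.6, 69.1 (69.15) and 78.3 CPM in parental 1, 2 and 3. It rose by 0.60 within the dated pairs (SE 0.12, adjusted p = 0.00562), although KO1-1 lies below parental 2. TIMP3, the inhibitor that binds to the matrix, stood at 36.45 and 56.6 CPM in KO1 and 36.1 CPM in the library labelled KO2, against 23.8 (23.85), 37.0 and 52.4 CPM, and rose by 0.60 in KO1 (SE 0.13, adjusted p = 0.0117). Its span holds part of SYN3 on the other strand, which reached 2.33 CPM at most. TIMP2, which also takes part in activating MMP2, stood at 30.5 and 39.4 CPM in KO1 and 14.9 CPM in the library labelled KO2, against 20.0 (19.99), 32.8 and 21.3 CPM, and its KO1 change of 0.42 did not pass (adjusted p = 0.105). LUM, a small leucine-rich proteoglycan of collagen fibrils, stood at 1.63 and 2.28 CPM in KO1 and 0.570 CPM in the library labelled KO2, against 0.547, 0.722 and 2.20 CPM, and rose by 0.85 in KO1 (SE 0.21, adjusted p = 0.0235). LUM was above 1 CPM in 3 libraries only. FN1 (fibronectin) stood at 82.3 and 99.5 CPM in KO1 and 25.5 CPM in the library labelled KO2, against 75.9, 83.1 and 37.9 CPM, and the laminin receptor DAG1 (dystroglycan) ran from 118 to 201.5 CPM in UBR7KO and from 80.5 to 188 CPM in parental cells. Both had adjusted p above 0.1 in KO1 (0.47 and 0.129).

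The 150 bases before the RefSeq start of TIMP1 are shown because its ATAC peak was called in both UBR7KO libraries. They span chrX:47582286-47582435 in GRCh38.p14, plus strand, with the GC box, read here on the other strand, in capitals.
TIMP1, 150 bases before the start: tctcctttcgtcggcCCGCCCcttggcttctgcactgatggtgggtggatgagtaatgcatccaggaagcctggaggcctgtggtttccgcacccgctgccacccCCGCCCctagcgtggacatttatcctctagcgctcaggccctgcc
The peak was called in 2 of 2 UBR7KO libraries and in 1 of 2 parental libraries, which differ in the number of peaks called. Its −log10 q was low, at 0.678 and 1.82 in UBR7KO and 1.00 in the parental library.

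The third comparison asked directly whether the change in the pair of the library labelled KO2 differed from that in the KO1 pairs. For most matrix genes it was lower: the median difference was −0.60 on the log2 scale, against −0.05 (−0.0465) over all tested genes, and 11 of 33 genes (33.3%) were called lower and 1 (3.03%) higher, beside 3.32% and 1.71% of all tested genes (limma with the pairs as a block). Without the block limma called 0 matrix genes in either direction, beside 3 lower and 0 higher of all tested genes. The COL2A1 difference then turned to −0.077 (limma adjusted p = 0.972). DESeq2 with the block called 6 matrix genes lower and 1 higher, beside 124 and 99 of all tested genes. A filter above 1 CPM in all 6 libraries left 7 lower and 1 higher, beside 359 and 179 of 12432 tested genes. At an unadjusted p under 0.05 there were 22 matrix genes lower and 2 higher in the blocked limma fit. Over all tested genes 1470 were lower and 862 higher at this cut, 17% in both directions together. The 12 called genes are spread over the classes as 2 of 12 basement membrane genes (LAMC1, NID1), 2 of 4 fibrillar collagens (COL3A1, COL2A1), 1 of 3 collagen VI genes (COL6A3), 1 of 7 processing genes (PLOD1) and 6 of 7 other genes (FN1, SPARC, LUM, TIMP1, TIMP2, TIMP3). This test rests on 1 library labelled KO2 and 1 residual degree of freedom, and the line, its preparation and the undated parental library cannot be told apart.

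The 4 largest differences were those of SPARC, COL3A1, COL6A3 and LUM. SPARC differed by −2.72 (SE 0.35, adjusted p = 1.17e-05), in the same direction as its fall in KO1. COL3A1 differed by −2.69 (SE 0.36, adjusted p = 2.17e-05), with 3.79 and 3.22 CPM in KO1 and 0.805 CPM in the library labelled KO2, against 2.77, 2.26 and 8.06 CPM in parental 1, 2 and 3. Its value in parental 3 was 3.21 times the mean of the dated parental libraries, and the library labelled KO2 was at 0.230 of the KO1 mean. COL6A3 differed by −1.94 (SE 0.37, adjusted p = 0.00161) and LUM by −1.87 (SE 0.37, adjusted p = 0.00255), and with DESeq2 both lost the call (adjusted p = 0.131 and 0.156). LUM in parental 3 was 3.46 times the dated parental mean.

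The genes of the TIMP protease inhibitors, laminin gamma 1 and nidogen-1 were also called lower. TIMP1 differed by −1.36 (SE 0.21, adjusted p = 0.000126), TIMP3 by −1.12 (SE 0.23, adjusted p = 0.00291) and TIMP2 by −0.91 (SE 0.25, adjusted p = 0.0318), all with higher levels in KO1 and lower levels in the library labelled KO2 than in their parental partners. Parental 3 stood at 1.51 (TIMP1), 1.72 (TIMP3) and 0.808 (TIMP2) times the dated parental mean, and the library labelled KO2 at 0.584, 0.776 and 0.427 times the KO1 mean. In the unblocked fit the TIMP3 difference was −0.32 (adjusted p = 0.867) and that of TIMP1 −0.70 (adjusted p = 0.776). LAMC1 differed by −1.17 (SE 0.21, adjusted p = 0.000888) and NID1 by −0.96 (SE 0.21, adjusted p = 0.00543). FN1 differed by −0.74 (SE 0.21, adjusted p = 0.0375) and PLOD1 by −0.73 (SE 0.21, adjusted p = 0.0385), calls that ended under TMM scaling (adjusted p = 0.0592 and 0.0658). PLOD1, which hydroxylates collagen lysines, stood at 67.25 and 62.15 CPM in KO1 and 62.6 CPM in the library labelled KO2, against 57.5 (57.55), 55.3 and 91.2 CPM, so that parental 3 is the library apart. COL2A1 was the gene with a higher change in the undated pair, by 1.14 (SE 0.23, adjusted p = 0.00281). Set against KO1 directly, without the parental partners, the library labelled KO2 was level with KO1 for COL2A1 (0.931 of the KO1 mean), and parental 3 was at 0.418 of the dated parental mean. The collagen IV genes differed by −0.53 (COL4A1) and −0.57 (COL4A2) with adjusted p of 0.218 and 0.131, and LAMA1 by 0.83 with an adjusted p of 0.0523.

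**Figure D4:**
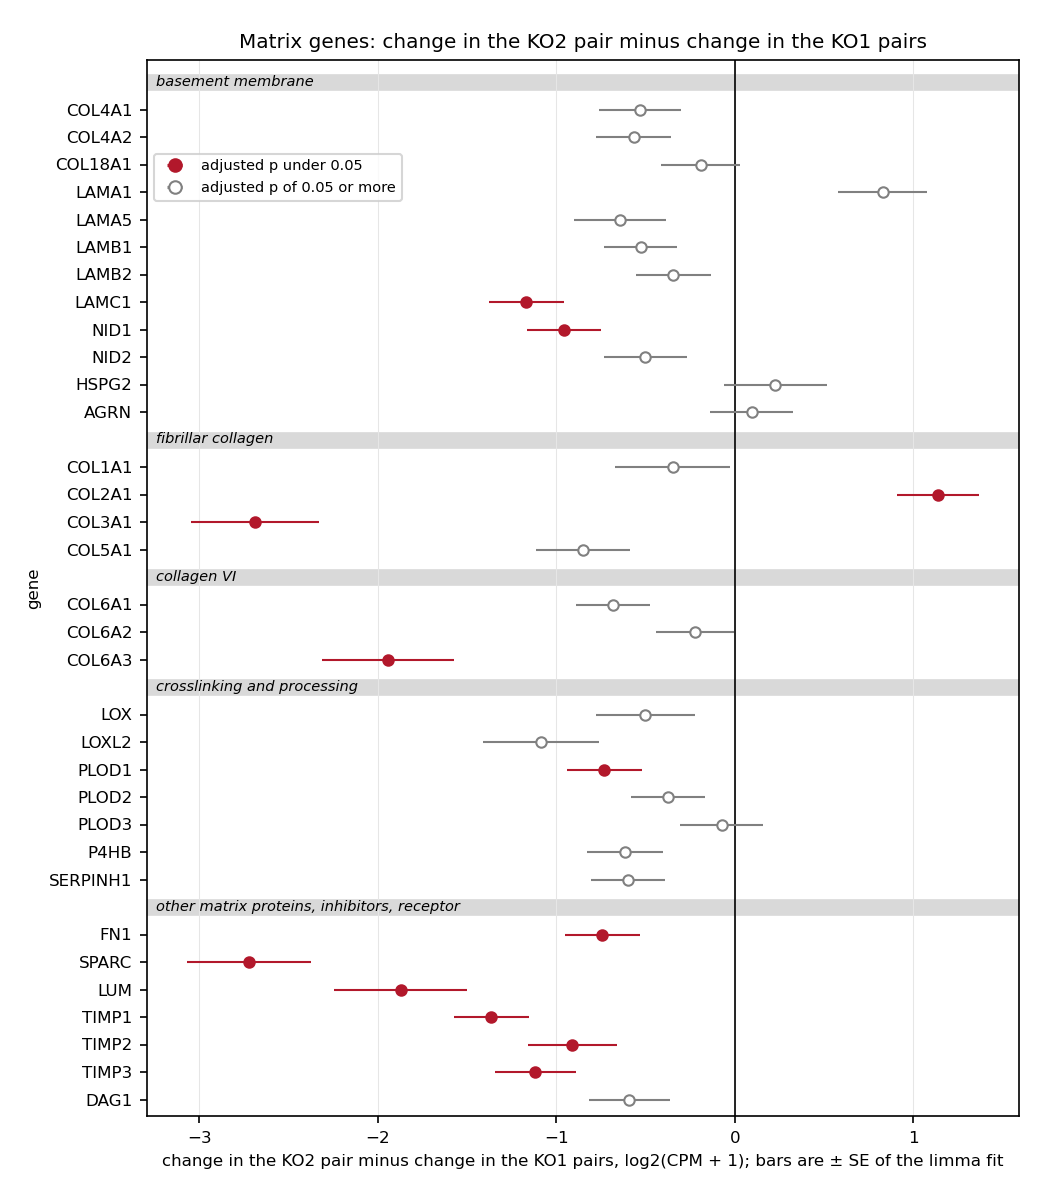
Change in the pair of the library labelled KO2 minus the change in the KO1 pairs for each of the 33 genes, on the log2(CPM + 1) scale, with bars of 1 SE from limma. Filled points have an adjusted p under 0.05, of which 11 lie left of 0 and COL2A1 lies right of it.

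Of the 14 genes that rose in KO1, 6 had a positive change in the undated pair, and their median there was −0.16. Of all 305 genes that rose in KO1 in the same fit, 112 (36.7%) did. The gene that fell in KO1 and also fell in the undated pair is SPARC, whereas LAMA1 was higher there by 0.31.

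Large chromosome stretches differ in RNA between these libraries, so each gene was set beside the tested genes within 5 Mb of its start. In the KO1 pairs the median change of these neighbours ran from −0.07 (LAMB1) to 0.34 (LAMC1), and 30 of 33 matrix genes lay above their neighbours, by a median of 0.35. In the undated pair the neighbour medians ran from −0.28 (COL1A1) to 0.50 (0.4955, COL4A1 and COL4A2), and 25 of 33 genes lay below their neighbours, by a median of −0.24. COL6A3 in KO1 and SPARC, COL3A1 and COL2A1 in the undated pair stood beside neighbour medians of 0.03, −0.07, −0.08 and −0.05.

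**Figure D5:**
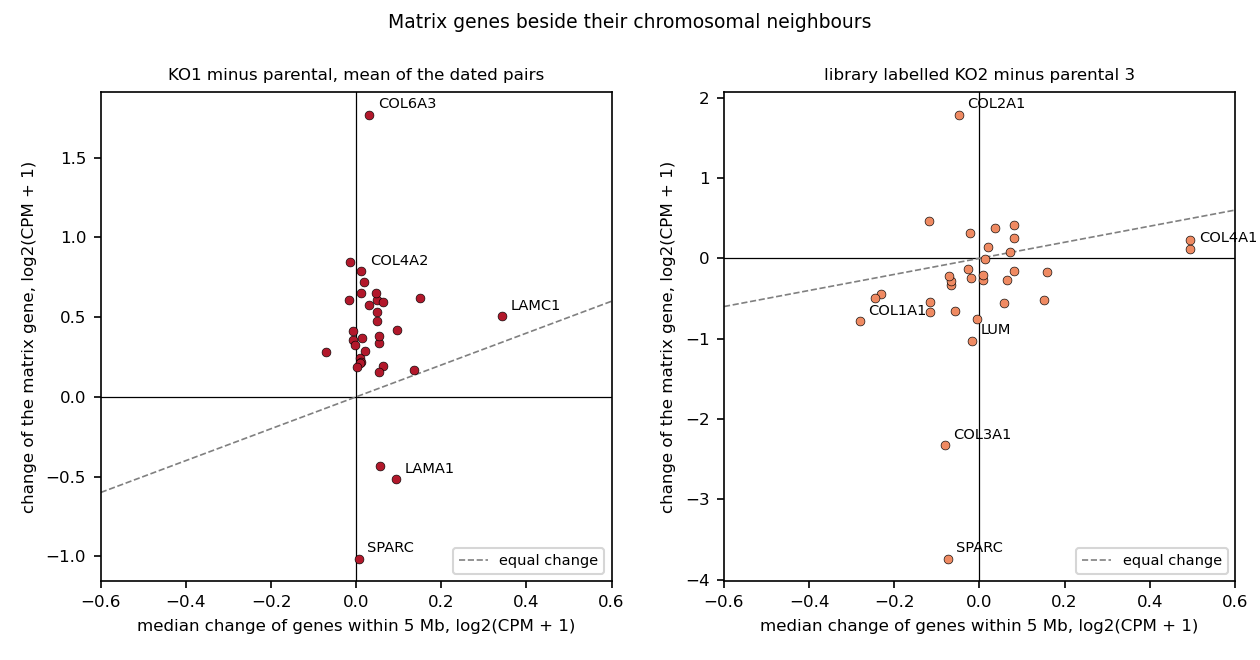
Change of each matrix gene against the median change of the tested genes within 5 Mb of its start, both on the log2(CPM + 1) scale, for the mean of the KO1 pairs and for the pair of the library labelled KO2. Of the 33 genes, 30 lie above the line of equal change in the KO1 pairs and 25 lie below it in the other pair.

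Other genes of the matrix pathway were read from lists of collagen chains, glycoproteins, enzymes, receptors, proteases and TGF-beta signalling. These lists too were chosen with earlier results of these data known. In the blocked KO1 fit, 6 of 25 tested laminins and glycoproteins, 4 of 23 matrix receptors, 5 of 23 proteases and inhibitors, 3 of 25 processing enzymes, 3 of 24 TGF-beta genes and 1 of 17 other collagen chains rose, beside 2.23% of all tested genes. None fell, beside 1.36% of all tested genes. Without the block 0 passed in each list. ITGB1, the beta 1 integrin that pairs with most collagen and laminin receptors, stood at 259 and 424 CPM in KO1 and 132 CPM in the library labelled KO2, against 137, 297 and 151 CPM in parental 1, 2 and 3. It rose by 0.71 in KO1 (SE 0.13, adjusted p = 0.00221) and its change in the undated pair differed from that in the KO1 pairs by −0.91 (adjusted p = 0.0133). FBLN1 (fibulin-1), chosen after its values were seen as were the next 2 genes, rose by 0.90 in KO1 (SE 0.12, adjusted p = 0.000103). ITGA8, an integrin needed for kidney development, rose by 0.88 (SE 0.13, adjusted p = 0.000159) and TNC (tenascin-C), a matrix glycoprotein of development and wounds, by 1.06 (SE 0.21, adjusted p = 0.00539). In the undated pair the changes of FBLN1, ITGA8 and TNC were −0.03, −0.69 and −3.72, differing from the KO1 pairs by −0.93, −1.57 and −4.79. TNC stood at 0.470 CPM in the library labelled KO2 and at 18.4 CPM in parental 3, above both KO1 values (6.52 and 9.10 CPM). The most expressed gene of each of the other 5 lists, COL4A5, VCAN (versican), the prolyl isomerase PPIB, the protease ADAMTS1 and the receptor TGFBR1, had KO1 changes of 0.35, 0.10, 0.38, −0.22 and 0.15, none of which passed the test.

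The same lists were read in the comparison of the undated pair with the KO1 pairs. Lower changes in the undated pair were called for 11 of 23 proteases and inhibitors, 6 of 23 receptors, 5 of 25 glycoproteins, 3 of 25 enzymes, 3 of 17 collagen chains and 2 of 24 TGF-beta genes, and higher ones for 2 collagen chains (COL4A3 and COL4A4) and 0 elsewhere, beside 3.32% and 1.71% of all tested genes. As above, line, preparation and the undated parental library cannot be told apart. ADAMTS1 stood at 95.05 and 133 CPM in KO1 and 54.8 CPM in the library labelled KO2, against 115, 150 (149.7) and 350.5 CPM in parental 1, 2 and 3, with a difference of −2.43 (adjusted p = 1.31e-08). As for COL3A1, parental 3 was the library furthest from the others.

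Open chromatin and UBR7 sites were looked up at the starts of the 33 genes. ATAC peaks lay within 1000 bases of 15 and 25 starts in the UBR7KO libraries and of 9 and 25 starts in the parental libraries. These are 45.5% and 75.8% in UBR7KO and 27.3% and 75.8% in parental cells, against 70.5% and 83.3% of all tested genes in UBR7KO and 55.5% and 80.8% in parental cells. The lists held 15310 and 45920 peaks for UBR7KO and 10507 and 38529 for parental cells, so the spread between replicates exceeds that between genotypes. Starts with a peak in all 4 libraries were those of LAMC1, NID1, AGRN, COL1A1, COL5A1, PLOD3, P4HB and FN1. No library had a peak within 1000 bases of the start that the RNA table gives for COL4A2, LAMA5, COL2A1, COL6A3, LOXL2 or PLOD2. For COL4A2 this depends on the window and on the start used. The peak counted for COL4A1 lay 1038 bases from the COL4A2 start in the second UBR7KO library and 1214 bases in the second parental library. The starts used for COL4A1 and COL4A2 lie 1337 bases apart, whereas 126 bases lie between their RefSeq starts. A peak lay 1210 bases from the LAMA5 start in the second UBR7KO library, and the nearest peaks to PLOD2 lay 1771 to 2119 bases away over the 4 libraries. The PLOD2 start used was 145881440 on chromosome 3, whereas the authors' clustering places one at 145879283, in cluster 4. Peaks at that PLOD2 start were not looked up. For LOXL2 the start used was 23282841 on chromosome 8, whereas the authors' clustering places a LOXL2 start at 23261723, in cluster 1. The nearest peaks lay 14588 to 31951 bases from the start used, and peaks at the other start were not looked up. Both UBR7KO ATAC libraries carry the code of the RNA library labelled KO2, so they were taken to come from that line, which the labels do not state. Of the 17 genes matched in the authors' clustering of gene starts by ATAC signal, 5, 2, 2 and 9 had a start in clusters 1, 2, 3 and 4, where DAG1 and LOX have 2 starts each, beside 19.6%, 18.1%, 15.6% and 46.7% of all clustered starts.

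Peaks of GFP-tagged UBR7 lay within 1000 bases of 12 of 33 starts (36.4%), beside 24.9% of all tested genes, in 1 ChIP library. These are COL18A1, LAMA1, LAMA5, LAMB2, LAMC1, NID1, AGRN, COL1A1, COL6A2, P4HB, TIMP2 and TIMP3. NID1 had 3 such peaks and COL1A1 2. Among them are genes that rose in KO1 (COL18A1, LAMA5, LAMC1, NID1, COL6A2 and TIMP3), 1 that fell (LAMA1) and others that did not pass.

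Promoter windows of RefSeq, 250 bases before the start in GRCh38.p14, were found for 24 of the 33 genes (30 windows). A GC box (GGGCGG) on either strand was in the windows of 22 of these genes (91.7%), where 42.6% of all windows held one. The median GC content was 71.4% for the 30 windows and 58.0% for all windows, and its part in the count of GC boxes was not tested. CCAAT was found for 11 genes (45.8%, against 32.0% of all windows), TATAAA for 3 (12.5%, against 10.7%), ACGTG for 5 (20.8%, against 18.5%), TGACGT for 3 (12.5%, against 7.10%) and TGANTCA for 0 (against 6.57%). A gene with several windows counted once if any window held the motif. The share of genes can therefore lie above or below that of windows. By window, 25 of the 30 held a GC box, 12 CCAAT, 3 TATAAA, 8 ACGTG, 3 TGACGT and 0 TGANTCA. The motifs were searched on both strands. TGACGT and ACGTG overlap where TGACGTG occurs, which then counts for both.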

How the data were processed

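RNA was measured in 6 libraries, open chromatin in 4 and GFP-UBR7 binding in 1. The 6 CUT&RUN samples were not analysed here. The authors deposited RNA as CPM per gene, per the file headers, and every value came out as a whole number of reads within 1e-06 when multiplied by the library total. The authors deposited with it their own comparison, a log2 fold change and adjusted p-value per gene from edgeR, whose design is not given in the sources used here. The authors deposited ATAC peaks per library with a −log10 q, and intersected sets and GFP-UBR7 peaks with a score of no stated scale. TopHat2 2.1.0, HTSeq 0.6.1, MACS2, Bowtie2 2.3.1 and deepTools appear in the submitters' processing notes, as do hg19 and hg38, with no role given for any of them. Coordinates in the files were used as given.

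Genes above 1 CPM in at least 3 of 6 libraries were tested (13697 of 14177, with all 33 matrix genes among them). limma 3.58.1 was fitted with trend and robust settings to log2(CPM + 1) in R 4.3.3, with Benjamini-Hochberg adjustment over all tested genes and a threshold of 0.05. The replicates are libraries whose separate culture is stated nowhere, so p-values measure at most the spread between libraries. In limma fits with 1 residual degree of freedom that spread is largely borrowed from other genes of similar level. A floor of 3 reads corresponds to 0.101 to 0.135 CPM and covers counting error only. Date codes pair the dated libraries, and deviations from the group means correlated at 0.758 and 0.736 in these pairs, at 0.633 in the undated pair, and at −0.443 to −0.251 between pairs. Since each group is centred, the third value largely follows from the others. The comparison of the undated pair with the KO1 pairs used the pairs as a block, and KO1 against its dated parental libraries was fitted without and with it. Alternatives were edgeR 4.0.16, DESeq2 1.42.0, TMM and RLE scaling, a pseudocount of 0.1, other filters and leaving out each library. The blocked fits under the other settings were chosen after seeing the data. The fits were tested on simulated data that held no differences between dates or preparations, so the outcome does not cover such differences. In the comparison of the undated pair with the KO1 pairs, 55% of simulated log2 changes of 1 were recovered. The other fits recovered 93% to 97%. Peaks were counted within 1000 bases of a gene start, and promoter sequences are from RefSeq. Of each other list up to 3 genes called in the dated pairs were to be named, or its most expressed gene where none was called. The 33 genes and all lists were chosen with earlier results of these data known.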

Additional observations from a re-analysis of the deposited data

Results flagged for a closer look

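The change in the pair of the library labelled KO2 differed from the change in the KO1 pairs for 12 of the 33 genes, by the direct test of the difference (limma with the pairs as a block, 1 library labelled KO2, Benjamini-Hochberg adjustment over 13697 genes). The differences, on the log2(CPM + 1) scale, were −1.17 for LAMC1, −0.96 for NID1, −2.69 for COL3A1, −1.94 for COL6A3 and −2.72 for SPARC. They were −1.87 for LUM, −1.36 for TIMP1, −0.91 for TIMP2, −1.12 for TIMP3, −0.73 for PLOD1 and −0.74 for FN1, and COL2A1 alone was on the other side at 1.14. Parental 3 itself stood at 3.21 (COL3A1), 3.46 (LUM), 1.80 (SPARC) and 0.418 (COL2A1) times the mean of the dated parental libraries, while for LAMC1 and NID1 it stood at 1.08 and 1.00 times that mean. Line, preparation and parental partner cannot be told apart.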

How the results depend on the processing

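KO1 against the dated parental libraries had 0 matrix genes called without the date pair, and 14 higher and 2 lower with the replicate block. Leaving out each library without the block gave 0 to 1 higher, the 1 being COL6A3 without parental 1. With the block, DESeq2 called 3 higher and 1 lower, beside 72 and 99 of all tested genes. A filter above 1 CPM in all 6 libraries left 12 higher and 1 lower, since SPARC, COL6A3 and LUM were then not tested. With that filter 273 of 12432 tested genes were higher and 153 lower. All 6 libraries with the pairs as a block gave 1 matrix gene higher under DESeq2 (COL2A1), beside 12 of all tested genes. For the undated pair against the KO1 pairs, 2 genes were higher with a pseudocount of 0.1, no filter, TMM, RLE or edgeR's quasi-likelihood test. LAMA1 was added each time, and 257 to 353 of all tested genes were higher at these settings. With the filter above 1 CPM in all 6 libraries 7 matrix genes were lower, and with DESeq2 6. Over all tested genes these 2 settings called 359 and 124 lower. Without the replicate block 0 matrix genes were higher and 0 lower, and COL2A1 turned to −0.077 (limma adjusted p = 0.972). PLOD1 and FN1 lost their calls under TMM, RLE, quasi-likelihood and DESeq2, and TIMP2 under DESeq2. For KO1 and for the undated pair against the KO1 pairs, leaving out a dated library leaves a blocked fit no residual degree of freedom. Such fits were not run, nor was the blocked fit of all 6 libraries with a library left out.

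An ATAC peak over the start itself was found for 9 and 20 genes in the UBR7KO libraries (27.3% and 60.6%), beside 52.5% and 67.3% of all tested genes. In the parental libraries it was found for 4 and 18 genes (12.1% and 54.5%), beside 38.2% and 64.0% of all tested genes. Peaks with a −log10 q of at least 5 lay near 0 and 2 starts in UBR7KO and near 0 and 1 in parental cells. The share of all tested genes was not counted at that cut. GFP-UBR7 peaks covered 4 starts (12.1%), beside 7.42% of all tested genes. Of the alternative values for single genes that had a test, 163 kept direction and side of the threshold, 37 kept direction but lost the call and 1 (COL2A1, above) reversed. A further 24, without 1 dated pair, had no test and kept their sign. For the 16 genes called in KO1 this tally holds blocked settings only. It leaves out the unblocked fit, in which all of them lost the call. Blocks with 1 residual degree of freedom, low read numbers for COL6A3, LUM and SPARC, and 1 library labelled KO2 limit these results.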
